A study of Oryctolagus cuniculus with 6 samples.

Results

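Expression of 10 genes that bind, take up, store and oxidise fatty acids was examined by RNA-seq in primary limbal stem cells (LSCs) of the rabbit, out of 22190 genes in the count table. The genes were selected by function around FABP3, and FABP3 itself had been chosen on its higher level in the preconditioned libraries. Because this is the contrast described here, the differences of the 10 genes between the groups are given as a description. The number of them that pass the cutoffs of the fits across all genes is given once, beside the share of all genes, and supports nothing. All 10 were found by their symbols, and all 10 passed the filter on low counts that left 15029 genes.

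In the fresh group, 3 libraries were made from the cells that grew out of limbal explants of unfrozen corneas. In the preconditioned group, 3 libraries were made from outgrowths of corneas that had first spent 1 week in liquid nitrogen in a cryomedium with the inflammatory cytokine IL-1β. The effects of freezing and of IL-1β cannot be told apart, because both came together. The same holds for the cryomedium itself, the storage and the thawing. No genetic change was made in either group, and the explants of both were grown in keratinocyte medium. The strain and age of the rabbits and the animal behind each library are not given in the sources used here, so the spread between libraries may be biological or technical.

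The libraries held 31952352 to 34327534 counts on genes. On the first principal component, with 50.4% of the variance, preconditioned replicate 1 lay at 8.13, between the fresh libraries at −53.1 to −41.1 and the other preconditioned libraries at 58.3 and 70.4. The log2 fold changes of the 10 genes and the pathway counts are therefore also given without it. The epithelial label was checked on 7 of 9 listed markers, as KRT12 and KRT14 were not found by symbol. The summed level of the 7 was 9758 to 13488 CPM in the fresh libraries and 9167 to 13502 CPM in the preconditioned libraries. KRT5, the keratin of basal epithelial cells, made up most of it with 7337 to 11740 CPM, while the limbal keratin KRT15 was low at 0.988 to 9.71 CPM. KRT3, the keratin of differentiated corneal epithelium, was at 961, 2655 and 409 CPM in the fresh libraries and at 801, 239 and 697 CPM in the preconditioned libraries, with groups that overlapped, a log2 fold change of −1.21 and an adjusted p of 0.296. TP63, the transcription factor of basal and limbal epithelium, had 237 ± 10.1 and 139 ± 38.9 CPM (SD, n = 3 each, adjusted p = 0.0588 by edgeR's quasi-likelihood (QL) test), and was lower without overlap. EPCAM, an adhesion protein of epithelia, was higher without overlap, with 82.9 ± 7.74 and 118 ± 13.7 CPM (adjusted p = 0.0601), and PAX6, the eye transcription factor, had 198 ± 21.9 and 346 ± 131 CPM (adjusted p = 0.112). CPM are counts scaled to a common library size, with edgeR's TMM factors.

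Fatty acids are poorly soluble in water, and inside the cell they are carried by small fatty acid binding proteins (FABPs). They enter with the help of membrane proteins such as CD36, are activated to acyl-CoA by synthetases such as ACSL1, and are then either stored as triglyceride in lipid droplets, which are coated by perilipins, or sent through CPT1A into mitochondria for oxidation. PPARs are nuclear receptors that fatty acids activate, and several genes described here, among them FABP4, PLIN2, CPT1A and ANGPTL4, are known PPAR targets. FABP3 is best known from heart and skeletal muscle, FABP4 from adipocytes and macrophages, and FABP5 from stratified epithelia.

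In the main fit, FABP3 had the largest difference of the 10 genes, PLIN2 the next largest, and CPT1A the largest toward a lower level after preconditioning. The order below FABP3 depended on the fit. By library size alone, the log2 fold change was −1.03 for CPT1A and 0.82 for PLIN2. Without preconditioned replicate 2 it was −0.88 for CPT1A and −1.80 for ANGPTL4. FABP3 was measured at 24.8, 16.5 and 54.3 CPM in the fresh libraries and at 80.2, 285 and 277 CPM in the preconditioned libraries. Every preconditioned library lay above every fresh library, but preconditioned replicate 1 was much closer to the fresh libraries than the other two. The means were 31.9 ± 19.9 and 214 ± 116 CPM (SD, n = 3 each), a 6.72-fold difference, or a log2 fold change (log2FC, preconditioned over fresh) of 2.75 with a standard error (SE) of 0.62. Without preconditioned replicate 1 the log2FC was 3.13, and over the libraries left out in turn it lay between 2.43 and 3.37. In such bulk samples, more cells that express a gene and more RNA per cell cannot be told apart.

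**Figure D1:**
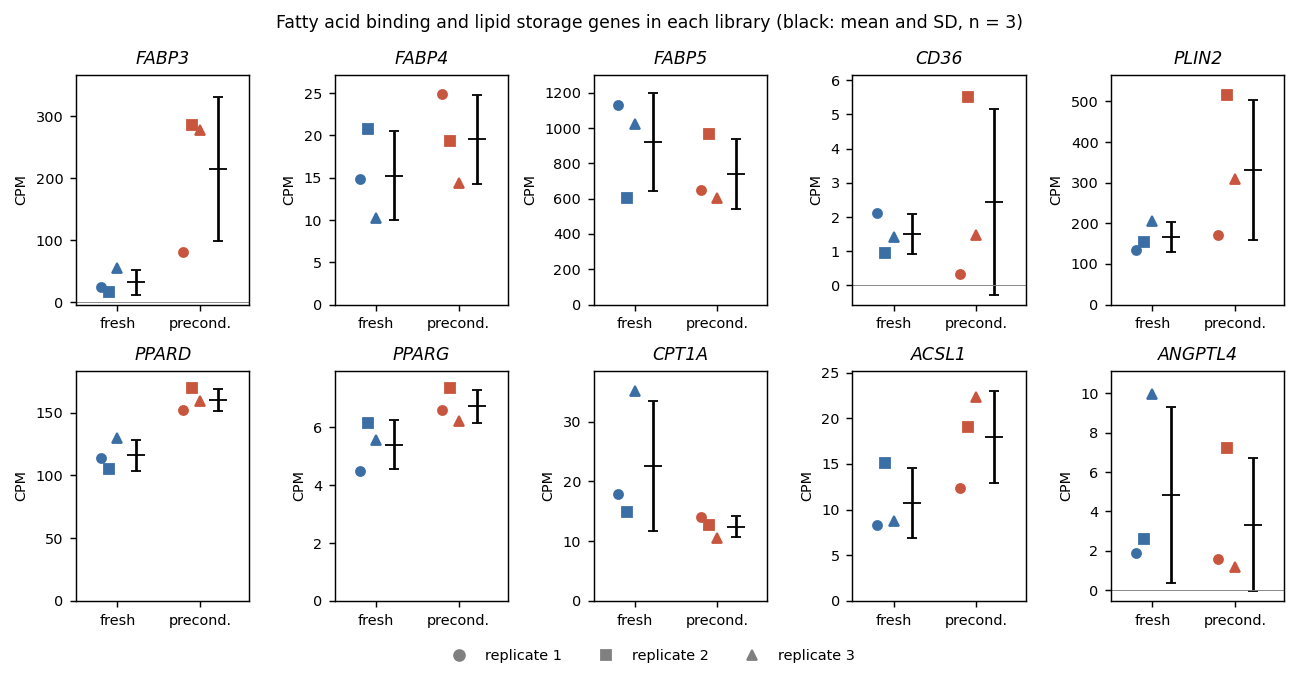
Level of each of the 10 genes in CPM (y axis, each panel with its own scale) in the fresh and preconditioned libraries (x axis, points shaped by replicate number), with the mean and SD in black. FABP3 and PPARD are higher in all 3 preconditioned libraries, and the high mean of CD36 rests on preconditioned replicate 2.

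The 2 other FABPs among the 10 genes did not share the pattern of FABP3. FABP4 was measured at 14.8, 20.8 and 10.2 CPM in the fresh libraries and at 24.9, 19.3 and 14.4 CPM in the preconditioned libraries. The groups overlapped, and the preconditioned library with the lowest FABP3 had the highest FABP4. Its log2FC was 0.36 (SE 0.30), and 0.13 without preconditioned replicate 1. FABP5 was by far the most abundant of the 3, with 1129, 605 and 1025 CPM in the fresh libraries and 648, 965 and 606 CPM in the preconditioned libraries. The groups overlapped, with nearly the same lowest level in both and the highest 2 libraries in the fresh group. The log2FC was −0.31 (SE 0.28).

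A second locus without a symbol, LOC127489248, is described as fatty acid-binding protein 5 in the table. The sequences of the loci were not compared. Reads that align to both may be missing from the counts, so that FABP5 may be counted too low. LOC127489248 was chosen after its values were seen, and it took 15.6%, 19.9% and 15.0% of the summed counts of both loci in the fresh libraries and 16.6%, 15.4% and 14.8% in the preconditioned libraries. These shares overlapped, and with the counts of both loci added the log2FC of FABP5 was −0.33 (SE 0.26).

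Levels of different genes were compared per length, by the FPKM values that the authors deposited. FABP3 made up 1.85%, 2.28% and 4.36% of the summed FPKM of FABP3, FABP4 and FABP5 in the fresh libraries. In the preconditioned libraries it made up 9.52%, 20.2% and 28.2%. The FPKM of FABP5 was 52.7, 42.3 and 21.8 times that of FABP3 in the fresh libraries and 9.35, 3.91 and 2.53 times in the preconditioned libraries, so that FABP5 stayed the highest of the 3 in each library. The summed FPKM of the 3 genes lay between 1011 and 1853 for fresh and between 1068 and 1693 for preconditioned libraries, and these ranges overlapped.

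**Figure D2:**
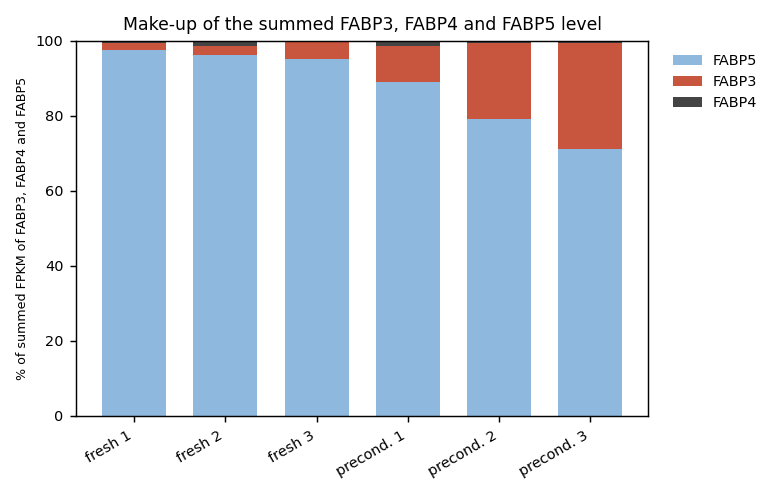
Share of FABP5, FABP3 and FABP4 (stacked bars, in % of the summed FPKM of the 3 genes) in each of the 6 libraries. The FABP3 share is at most 4.36% in the fresh libraries and between 9.52% and 28.2% in the preconditioned libraries.

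Of the other genes of the family, 5 were matched by symbol, and FABP2, FABP9, FABP12 and PMP2 did not pass the filter on low counts. FABP7, which is known from the nervous system, was the one that passed. It was measured at 1.01, 2.53 and 2.71 CPM in the fresh libraries and at 0.122, 4.54 and 0.165 CPM in the preconditioned libraries. One preconditioned library was the highest of all 6 and the other two the lowest, and the log2FC of −0.37 (SE 1.24, adjusted p = 0.862 by the edgeR QL test) turned to 0.16 without preconditioned replicate 1 and also without preconditioned replicate 3.

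CD36, the membrane receptor that takes up long-chain fatty acids and oxidised lipoproteins, had the lowest FPKM of the 10 genes in both groups. It was measured at 2.12, 0.956 and 1.42 CPM in the fresh libraries and at 0.335, 5.50 and 1.48 CPM in the preconditioned libraries. Preconditioned replicate 2 held the highest value and preconditioned replicate 1 the lowest, with all fresh libraries in between. The log2FC was 0.70 (SE 0.88), turned to −0.72 without preconditioned replicate 2 and was 1.21 without preconditioned replicate 1. CD36 is also expressed by macrophages and endothelial cells. Of the macrophage markers, MRC1 was at 43.1 CPM in preconditioned replicate 2, at 2.62 CPM in preconditioned replicate 1 and at 5.42 to 10.5 CPM in the other libraries. The endothelial marker PECAM1 was at 12.8, 0.882 and 2.30 to 4.97 CPM in the same libraries. The other endothelial markers were low, with EMCN at 2.01 CPM in preconditioned replicate 2 and up to 3.75 CPM in fresh replicate 3. CDH5 and CLDN5 were highest of all 6 libraries in preconditioned replicate 2, at 0.224 and 0.384 CPM, and VWF and KDR were at 0 there and at most 0.219 CPM in any library. Their part in the level of CD36 was not tested.

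The whole list of 8 macrophage and leukocyte markers summed to 113 to 144 CPM in the fresh libraries and 129.8 to 372 CPM in the preconditioned libraries, and most of it was CD68, a lysosomal protein with 93.4 to 299.6 CPM. The 7 endothelial markers summed to 4.38 to 6.70 and 1.67 to 15.4 CPM, and TEK had at most 3 counts in every library. All 8 of the first list and 2 of the second passed the filter on low counts, and none passed the cutoffs with edgeR. With DESeq2, CD68 passed them (adjusted p = 0.00951, against 0.0848 with edgeR). CD68 was at 97.6, 129 and 93.4 CPM in the fresh libraries and at 121, 299.6 and 288 CPM in the preconditioned libraries. As with FABP3 and PLIN2, preconditioned replicate 1 was the lowest of its group and nearest to the fresh libraries. FABP4, FABP5 and PLIN2 are also expressed by macrophages, and the part of such cells in these levels was not tested.

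ACSL1, the synthetase that activates long-chain fatty acids, was measured at 8.29, 15.1 and 8.75 CPM in the fresh libraries and at 12.4, 19.1 and 22.3 CPM in the preconditioned libraries. The highest fresh library lay above the lowest preconditioned library, which was again replicate 1. The log2FC was 0.74 (SE 0.31).

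PLIN2, the perilipin that coats lipid droplets in most cell types, was measured at 135, 154 and 206 CPM in the fresh libraries and at 172, 515 and 309 CPM in the preconditioned libraries. Preconditioned replicate 1 lay within the fresh range and the other two preconditioned libraries above it. The means were 165 ± 36.9 and 332 ± 172 CPM (SD, n = 3 each), with a log2FC of 1.01 (SE 0.38), which became 1.31 without preconditioned replicate 1 and 0.54 without preconditioned replicate 2. The fresh library with the highest PLIN2, replicate 3, also had the highest FABP3 of its group, and preconditioned replicate 1 had the lowest of both in its group.

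CPT1A, which controls the entry of long-chain fatty acids into mitochondria, was measured at 17.9, 15.0 and 35.1 CPM in the fresh libraries and at 14.1, 12.8 and 10.5 CPM in the preconditioned libraries. Every preconditioned library lay below every fresh library, but the gap between 15.0 and 14.1 CPM was small and the fresh mean was raised by replicate 3. The log2FC was −0.86 (SE 0.33) and −0.40 without fresh replicate 3.

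ANGPTL4, a secreted inhibitor of lipoprotein lipase, was measured at 1.91, 2.62 and 9.98 CPM in the fresh libraries and at 1.58, 7.23 and 1.19 CPM in the preconditioned libraries. One library of each group stood far above the others. The log2FC was −0.54 (SE 0.88), and its sign turned to 0.55 without fresh replicate 3, while it was −1.80 without preconditioned replicate 2.

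The receptors varied least among the libraries. PPARD, the PPAR that is widespread in epithelia, was measured at 114, 105 and 129.6 CPM in the fresh libraries and at 152, 169.6 and 159 CPM in the preconditioned libraries. The groups did not overlap, and the log2FC was 0.47 (SE 0.12), or 0.29 when libraries were scaled by their total count alone. PPARG, the receptor of adipocyte differentiation, was measured at 4.49, 6.16 and 5.55 CPM in the fresh libraries and at 6.60, 7.35 and 6.22 CPM in the preconditioned libraries. The gap between 6.16 and 6.22 CPM was small, and in FPKM they overlapped, with 1.82 to 2.51 for fresh and 2.27 to 2.58 for preconditioned libraries. Its log2FC was 0.32 (SE 0.22).

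**Figure D3:**
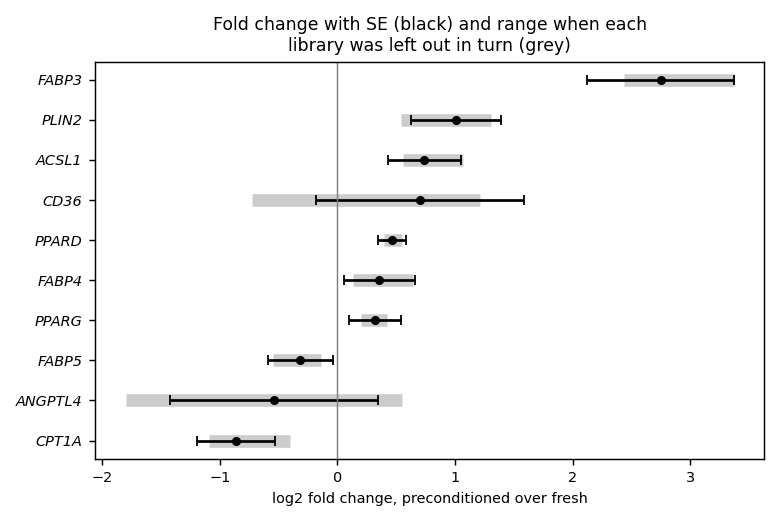
Log2FC of each of the 10 genes, preconditioned over fresh (x axis), with its standard error in black and, in grey, the range over the fits that left out 1 of the 6 libraries. Only CD36 and ANGPTL4 have a grey range on both sides of 0, and FABP3 stays between 2.43 and 3.37.

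Of the 10 genes, 7 had a log2FC above 0 and 3 below it, with a median of 0.41 against 0.01 over all tested genes. In 4 of them the groups did not overlap, FABP3, PPARD and PPARG being higher and CPT1A lower in the preconditioned libraries, where 36.7% of all tested genes did not overlap in either direction. None of the 10 genes passed both cutoffs of the edgeR QL test (an adjusted p up to 0.05, and a log2FC of 1 or more in size), against 2.29% of all tested genes. At an unadjusted p under 0.05 there were 5 of the 10 genes and 30.6% of all tested genes. With DESeq2, FABP3 and PLIN2 passed the same cutoffs, against 7.78% of all genes with an adjusted p. FABP3 also passed in edgeR by library size alone, with a filter of CPM above 1 in 3 libraries and without preconditioned replicate 1, and in limma on log2(FPKM + 0.1). PLIN2 also passed without preconditioned replicate 1. Since the choice of the genes used this contrast, nothing is read from these counts.

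In CPM, preconditioned replicate 2 had the highest level of its group for 7 of the 10 genes, and the lowest for none. For FABP3, 1 of the 7, preconditioned replicate 3 was higher in FPKM (346 against 342). Preconditioned replicates 1 and 3 each had the lowest level of the group for 5 genes. Replicate 1 was lowest for FABP3, CD36, PLIN2, PPARD and ACSL1, and replicate 3 for FABP4, FABP5, PPARG, CPT1A and ANGPTL4. In the fresh group, replicate 3 was highest for FABP3, PLIN2, PPARD, CPT1A and ANGPTL4.

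In the fresh group the order by mean FPKM was FABP5 (1481 ± 445, SD, n = 3), PPARD (99.2 ± 10.9), PLIN2 (84.0 ± 19.2), FABP3 (44.5 ± 27.9), FABP4, CPT1A, ACSL1, ANGPTL4, PPARG and CD36 (0.487 ± 0.188). FABP5 was separated from PPARD, FABP3 from FABP4, and PPARG from CD36, while the libraries of the other neighbours overlapped. In the preconditioned group, FABP3 stood second at 263 ± 140 (SD, n = 3), behind FABP5 at 1055 ± 249.5 and ahead of PLIN2 at 149 ± 73.2 and PPARD at 122 ± 3.25. There, FABP5 was separated from FABP3, PPARD from FABP4, and ACSL1 from CPT1A, and FABP3 overlapped with PLIN2.

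**Figure D4:**
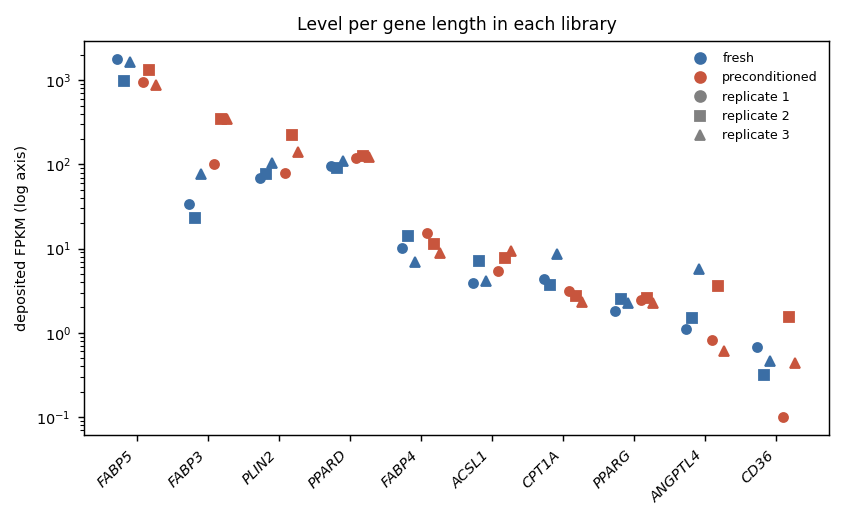
Deposited FPKM (y axis, log scale) of the 10 genes in each library, ordered by their mean over all 6 libraries. FABP5 is the highest gene in every library, and FABP3 moves from a fresh mean of 44.5 to a preconditioned mean of 263.

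The rest of the pathway was followed in 10 lists of 140 genes by function, of which 125 were matched by symbol and 108 passed the filter. These lists too were drawn up with earlier results of the data known, so their counts are no independent evidence. By the edgeR QL test, 2 of the 108 genes passed both cutoffs, 1 higher (against 1.08% of all tested genes) and 1 lower (against 1.20%). The median log2FC of the 108 genes was −0.05, and 45 of them had groups without overlap (41.7%, against 36.7% of all tested genes). Both calls were lost when any library other than preconditioned replicate 1 was left out, with limma on log2(FPKM + 1), and with the replicate number as a block, where 0 of the 108 genes passed. The fold changes in the fits with 1 library left out were 1.77 to 2.42 for ACSL6 and −1.54 to −1.29 for PPARGC1B on the log2 scale, with the block 2.12 and −1.40, and with log2(FPKM + 1) 0.47 and −0.56. Fits with a library left out or with the block have less information to estimate the spread, which by itself can raise an adjusted p. Its part in passes lost here and below was not tested. Without preconditioned replicate 1, 8 of 108 pathway genes passed, against 9.99% of all genes then tested. They were ACACA, ACAD9, ACSL6, ELOVL2, ELOVL6, HILPDA, MGLL and PPARGC1B.

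ACSL6, a long-chain acyl-CoA synthetase known from brain and blood cells, rose from 1.57, 0.985 and 0.957 CPM in the fresh libraries to 7.61, 3.61 and 4.45 CPM in the preconditioned libraries. The groups did not overlap, and here preconditioned replicate 1 was the highest library. Its log2FC was 2.16 (SE 0.40, adjusted p = 0.0389 by the edgeR QL test, with 1.2e-05 to 0.146 across the alternatives). The 14 tested genes of fatty acid uptake and activation had a median log2FC of 0.13. The other 13 did not pass the test, among them the more abundant synthetases ACSL3 and ACSL4 with log2FC values of 0.17 and 0.10. SLC27A5 and ACSF3 had log2FC values of −1.29 and −1.27 with groups that did not overlap, but at mean levels of at most 0.717 CPM.

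PPARGC1B, a coactivator of PPARs and other nuclear receptors that drives genes of oxidative metabolism, fell from 7.68, 9.73 and 10.2 CPM in the fresh libraries to 4.08, 2.94 and 3.46 CPM in the preconditioned libraries. The lowest fresh library was well above the highest preconditioned library. The log2FC was −1.40 (SE 0.24, adjusted p = 0.0366 by the edgeR QL test, with 3.13e-06 to 0.145 across the alternatives). The 8 tested partners of the PPARs had a median log2FC of −0.13, and none of the other 7 passed the test. PPARA had a log2FC of 0.28 and RXRB of 0.06.

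Among the 16 tested genes of the lipid droplet and of triglyceride storage, whose median log2FC was −0.15, none passed both cutoffs in the main edgeR fit and 1 passed with DESeq2. That gene was HILPDA, a droplet protein that inhibits lipolysis, which was measured at 47.5, 42.2 and 75.4 CPM in the fresh libraries and at 82.1, 235 and 202 CPM in the preconditioned libraries. In CPM, the order of the 6 libraries was that of FABP3, with fresh replicate 3 and preconditioned replicate 1 next to each other in the middle. In FPKM, HILPDA was at 70.5 in fresh replicate 3 and at 69.5 in preconditioned replicate 1. Its log2FC was 1.65 (SE 0.41, adjusted p = 0.0605 by the edgeR QL test, with 0.000613 to 0.186 across the alternatives). Without preconditioned replicate 1 it was 1.98, and HILPDA passed both cutoffs with edgeR. PLIN3, the other perilipin matched by symbol, had 57.5 ± 2.69 and 53.3 ± 13.8 CPM (SD, n = 3 each). The triglyceride synthases DGAT1 and DGAT2 had log2FC values of −0.11 and 0.22.

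None of the 8 lipolysis genes passed the test in the main fit, and their median log2FC was −0.30. MGLL, with the largest change of the list, was at 19.9, 20.6 and 36.3 CPM in the fresh libraries. In the preconditioned libraries it was at 24.8, 11.6 and 6.42 CPM, so the groups overlapped. Its log2FC was −0.84 (SE 0.50, adjusted p = 0.289 by the edgeR QL test). Without preconditioned replicate 1 it was −1.51, and MGLL passed both cutoffs. PNPLA3, the most abundant of them per length, had 422 ± 76.6 and 376 ± 59.9 CPM (SD, n = 3 each), a log2FC of −0.17 (adjusted p = 0.555). PNPLA2, the lipase that starts the breakdown of stored triglyceride, had a log2FC of −0.01. LIPE, the hormone-sensitive lipase, was measured at 4.93, 4.61 and 3.39 CPM in the fresh libraries and at 2.68, 2.24 and 3.36 CPM in the preconditioned libraries, with a log2FC of −0.64 (SE 0.29, adjusted p = 0.183).

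The 18 tested genes of mitochondrial fatty acid oxidation had a median log2FC of 0.14, and none passed both cutoffs. By adjusted p alone, 1 was higher and 1 lower, against 5.08% of all tested genes in either direction. ACAD9, an acyl-CoA dehydrogenase that also assembles respiratory complex I, fell from 57.1 ± 1.99 to 28.7 ± 6.64 CPM (SD, n = 3 each) at a log2FC of −0.99 (SE 0.18, adjusted p = 0.038, with 0.000174 to 0.145 across the alternatives). HADHB, a subunit of the trifunctional protein that was named after its values were seen, rose from 108 ± 15.0 to 180.5 ± 22.4 CPM (SD, n = 3 each) at a log2FC of 0.75 (SE 0.15, adjusted p = 0.042, with 0.00135 to 0.153 across the alternatives). Both passes were lost with the replicate block and when any library other than preconditioned replicate 1 was left out, and that of HADHB also in both limma fits. The log2FC was −1.02 with the block and −1.19 to −0.84 over the libraries left out for ACAD9, and 0.75 and 0.65 to 0.86 for HADHB. ACAD9 passed both cutoffs by library size alone, in both limma fits and without preconditioned replicate 1. HADHA, the partner subunit of HADHB, had a log2FC of 0.12 (adjusted p = 0.549). ACAA2, the thiolase with the highest level per length, had a log2FC of 0.20 (SE 0.11, adjusted p = 0.262), and CPT2, which acts after CPT1A, one of −0.42 (adjusted p = 0.149). The isoform CPT1B was measured at 7.71 ± 1.66 and 10.3 ± 1.78 CPM (SD, n = 3 each), and its log2FC was 0.42 (adjusted p = 0.271).

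In peroxisomal fatty acid oxidation, none of 12 tested genes passed both cutoffs, and the median log2FC was 0.17. The fresh and preconditioned libraries were separated for 7 of them (58.3%, against 36.7% of all tested genes), 4 higher and 3 lower. ACAA1, the peroxisomal thiolase, rose from 35.9 ± 1.91 to 53.2 ± 4.01 CPM (SD, n = 3 each) by adjusted p alone, with a log2FC of 0.57 (SE 0.11, adjusted p = 0.0421, with 0.00247 to 0.155 across the alternatives), and was named after its values were seen. Its pass was lost by library size alone (log2FC 0.40), in limma on log2(FPKM + 1) and log2(FPKM + 0.1) (0.38 and 0.40), with the block (0.57) and when any library other than preconditioned replicate 1 was left out (0.51 to 0.63 over all 6 libraries). SCP2, a lipid carrier and thiolase with the highest FPKM of the list, had a log2FC of 0.52 (SE 0.12, adjusted p = 0.0515). AMACR, a racemase for branched-chain fatty acids, had one of 0.71 (SE 0.19, adjusted p = 0.0677).

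Of 6 further PPAR targets that passed the filter, with a median log2FC of 0.10, none passed the test. PDK4, which is induced when fatty acids are used as fuel, was measured at 8.63 ± 6.23 and 8.58 ± 4.36 CPM (SD, n = 3 each). UCP2, a mitochondrial carrier, had a log2FC of −0.82 (SE 0.38, adjusted p = 0.188) with groups that did not overlap. TXNIP, the most abundant of the 6, had one of −0.32 (SE 0.23, adjusted p = 0.367).

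The 20 tested genes of fatty acid synthesis, elongation and desaturation had a median log2FC of −0.28, and none passed both cutoffs with edgeR. ELOVL6, which elongates saturated fatty acids, fell by adjusted p alone from 71.2 ± 3.52 to 39.6 ± 7.83 CPM (SD, n = 3 each) at a log2FC of −0.85 (SE 0.16, adjusted p = 0.0389, with 0.000632 to 0.145 across the alternatives), and was named after its values were seen. Its pass was lost with the block, at a log2FC of −0.86, and when any library other than preconditioned replicate 1 was left out, at −1.02 to −0.72 over all 6 libraries. ACACA, the carboxylase of the first committed step, had one of −0.84 (adjusted p = 0.0575), and SREBF1, the transcription factor of lipid synthesis, one of −0.67 (adjusted p = 0.0552). In the opposite direction, ELOVL2, an elongase of polyunsaturated fatty acids, had 2.79 ± 0.261 and 6.01 ± 1.46 CPM (SD, n = 3 each), a log2FC of 1.11 (SE 0.28, adjusted p = 0.0585), and passed the cutoffs with DESeq2. HSD17B12, the most abundant of the list per length, had a log2FC of 0.38 (SE 0.13, adjusted p = 0.104).

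Around lipoprotein lipase, the enzyme that ANGPTL4 inhibits, none of 5 tested genes passed the test, and their median log2FC was −0.43. LPL itself was low, at 0.760 ± 0.552 and 0.892 ± 0.751 CPM (SD, n = 3 each). SCARB1, a lipoprotein receptor, had 44.4 ± 5.19 and 32.9 ± 4.13 CPM (SD, n = 3 each) and a log2FC of −0.43 (SE 0.15, adjusted p = 0.102).

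**Figure D5:**
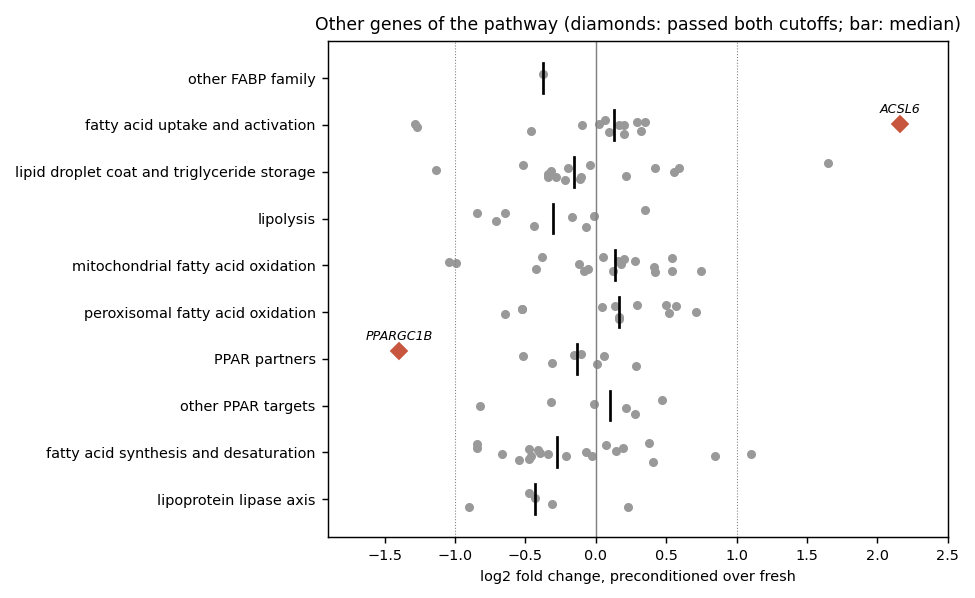
Log2FC, preconditioned over fresh (x axis), of the 108 tested genes in the 10 pathway lists (y axis), where each point is a gene, the bar is the median of the list and dotted lines mark a change of 1. ACSL6 and PPARGC1B, drawn as diamonds, are the genes that passed both cutoffs.

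Markers of other cell types that express these genes were measured beside them. Of 5 adipocyte markers found by symbol (PLIN1 was not), ADIPOQ was at 0 to 0.116 CPM, and CIDEC and RETN had at most 3 counts in every library. The list summed to 4.05 to 5.22 CPM in the fresh libraries and 3.07 to 5.50 CPM in the preconditioned libraries. Most of the sum was LIPE, except in preconditioned replicate 2, where LEP was higher (3.26 against 2.24 CPM). LEP, the leptin gene, was at 0.116, 0.0281 and 0.574 CPM in the fresh libraries and at 0.396, 3.26 and 0.724 CPM in the preconditioned libraries, with groups that overlapped and a log2FC of 2.58 (adjusted p = 0.174). Of 8 listed striated muscle markers, CKM, MYH1, MYH2 and TNNT3 were not found by symbol. Of the other 4, DES and TTN had at most 3 counts in every library. The myoglobin gene MB was at 0.0844 to 0.137 CPM in the fresh and 0.198 to 0.320 CPM in the preconditioned libraries. ACTA1 reached 24.6 CPM in fresh replicate 2, the library with the lowest FABP3. The 10 markers of stromal keratocytes and fibroblasts summed to 529, 824 and 1144 CPM in the fresh libraries and to 1316, 2323 and 1299 CPM in the preconditioned libraries, and 1 of them, COL1A1, passed the cutoffs. This sum was higher in each preconditioned library, as FABP3 was, and within the groups it was highest in fresh replicate 3 and in preconditioned replicate 2, where FABP3 was also highest in CPM. Preconditioned replicates 2 and 3 were close in FABP3, at 285 and 277 CPM, and in FPKM replicate 3 was higher (342 and 346). In preconditioned replicates 1 and 3 the sum was nearly the same, while FABP3 was at 80.2 and 277 CPM. The separation of the groups rested on COL1A1. Without it, an alternative chosen after seeing the data, the sums were 472, 716 and 1036 CPM in the fresh libraries and 779, 1630 and 794 CPM in the preconditioned libraries, which overlap. Of the other 9 markers, 5 had a log2FC above 0, namely COL1A2 (1.11), COL3A1 (0.85), PDGFRA (0.59), LUM (0.44) and VIM (0.43), and 4 below it, namely KERA (−1.27), THY1 (−0.33), DCN (−0.13) and PDGFRB (−0.01). The part of such cells in the level of FABP3 was not tested. The 5 markers of smooth muscle and pericytes summed to 27.3 to 87.5 and 45.7 to 163 CPM, with 1 of them, RGS5, passing the cutoffs, and the 5 melanocyte markers to 4.36 to 5.69 and 2.59 to 3.79 CPM.

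The tested genes whose pattern over the 6 libraries was nearest to that of FABP3 were found by the root mean square difference of their centred log2 CPM. CREG2, an uncharacterised relative of a secreted glycoprotein, was nearest at 0.247, with 0.113 to 0.684 CPM in the fresh libraries and 0.974 to 3.49 CPM in the preconditioned libraries. LOC103350429 followed at 0.403, NEXMIF, a neuronal gene, at 0.411 and DKK1, a secreted inhibitor of Wnt signalling, at 0.421. In DKK1, 1.51, 1.24 and 1.97 CPM in the fresh libraries stood against 6.51, 25.2 and 15.7 CPM in the preconditioned libraries. Closeness over 6 libraries in 2 groups is a description only, and 3 of these 4 genes were at under 4 CPM in every library.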

How the data were processed

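RNA-seq libraries of polyA RNA from rabbit LSCs were grouped by the sample titles, 3 fresh and 3 preconditioned. Alignment by the authors was with hisat2, and the deposited raw counts came from htseq-count. They also deposited FPKM values, which are not TMM-scaled and were used to compare genes. The genome build, annotation and strand setting are not given in the sources used here, so no coordinates are printed, and no sequences were used. The deposited gene symbols were taken as they stand.

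The counts went into edgeR 4.0.16 under R 4.3.3 (filterByExpr, TMM, robust quasi-likelihood test, condition as the only factor). Benjamini-Hochberg adjustment ran over 15029 genes. Standard errors come from the F statistic. With 3 libraries a group, spread rather than depth limits precision. Alternatives used DESeq2 1.42.0 and limma 3.58.1 and are given in the closing section.

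The 10 genes and all lists were chosen with earlier results of these data known. Genes named from a pathway list passed both cutoffs or, where none did, had its highest FPKM, and the gene with the largest change among those without overlap was added. The others named from the lists were chosen as context after their values were seen. The 5 genes nearest to FABP3 were to be named, and 1 of them is not reported here.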

Additional observations from a re-analysis of the deposited data

How the results depend on the processing

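The log2 fold changes of FABP3, FABP4, FABP5, PLIN2, CPT1A and ACSL1 kept their sign under all alternatives. Over the libraries left out, CPT1A ranged from −1.09 to −0.40 (−0.86 with all libraries), PLIN2 from 0.54 to 1.31 (1.01) and ANGPTL4 from −1.80 to 0.55 (−0.54). That of PPARD was 0.29 by library size alone, 0.30 with limma on log2(FPKM + 1) and 0.30 with log2(FPKM + 0.1), where the median of all genes moved from 0.01 to −0.16, −0.09 and −0.15. That of PPARG was 0.11 with log2(FPKM + 1). Without preconditioned replicate 1, the log2 fold change was 0.93 for ACSL1, 0.49 for PPARD and 0.32 for PPARG. In the same fit it was −0.24 for FABP5, −0.97 for CPT1A and −0.21 for ANGPTL4. CD36 ranged from −0.72 to 1.21 over the libraries left out and was −0.02 with log2(FPKM + 0.1), and the cause was not tested. FABP7 ranged from −3.83 without preconditioned replicate 2 to 0.16 without preconditioned replicate 1, and was 0.16 without preconditioned replicate 3.

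Over all tested genes, 344 passed both cutoffs (163 higher, 181 lower). There were 1190 with DESeq2, 565 by library size alone (142 higher, 423 lower), 590 with log2(FPKM + 0.1) (141 higher, 449 lower), 763 without the fold change cutoff and 14 to 1546 over the libraries left out, the highest without preconditioned replicate 1 (616 higher, 930 lower). With log2(FPKM + 1) there were 77 higher and 206 lower genes. Of the 108 pathway genes, 2 passed in the main analysis, 4 with DESeq2 (ACSL6, ELOVL2, HILPDA and PPARGC1B), 5 by library size alone, 1 with log2(FPKM + 1) (ACAD9), 5 with log2(FPKM + 0.1), 6 without the fold change cutoff and 0 to 8 over the libraries left out.

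With the replicate block, 30 genes passed in all and 0 of the pathway genes. FABP3 then had a log2 fold change of 2.70. Same-numbered libraries did not deviate together (mean r = −0.083 across genes), and no library correlated best with its own number, so that no pairing by number was found. With 3 libraries a group, the deviations from a group mean depend on each other, so these correlations cannot decide on a pairing. Whether libraries with different numbers share an animal was not tested. Adding the counts of both FABP5 loci and leaving COL1A1 out of the stromal sum were chosen after seeing the data.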
